A study of Mus musculus with 2 samples.

Results

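The Hox genes of clusters A, B, C and D were followed through 2 single-cell RNA libraries of mouse aorta. Members were taken by name alone, as every gene whose symbol is Hox, a cluster letter from a to d and a paralog number, and 39 of the 32285 genes in the matrices met that rule. HoxA had 11 of them on chromosome 6, HoxB 10 on chromosome 11, HoxC 9 on chromosome 15 and HoxD 9 on chromosome 2. The anterior paralog groups 1 to 4 had 12, the central groups 5 to 8 had 11 and the posterior groups 9 to 13 had 16. Each library was made from aortas of 1-month-old mice, one wild-type and one carrying an MGP knock-in, a mutated allele of matrix Gla protein, the secreted calcification and BMP inhibitor. Males and females were combined in both, the adventitia had been removed before digestion with Liberase, and live DAPI-negative cells were sorted. The labels gave neither the number of mice nor the segment of aorta a cell came from, so position along the vessel was not measured, and the changed residue of the knock-in allele could not be checked from gene counts. With 1 library per genotype no difference was tested, and every interval covers counting error only.

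Hox proteins are homeodomain transcription factors whose genes lie in 4 clusters in the mouse. Within a cluster the genes are ordered so that low-numbered genes are switched on early and towards the head, and high-numbered genes late and towards the tail. Cells keep much of this expression into adult life, and cultured and native vascular smooth muscle and fibroblasts are known to carry a Hox pattern of the body level at which they arose. Hox proteins bind DNA with TALE homeodomain partners such as the Meis proteins, and the clusters are held silent or open by Polycomb and trithorax complexes. Retinoic acid acts on the anterior genes, and Cdx proteins act on the more posterior ones.

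After filtering, 3588 wild-type and 6089 knock-in cells remained, with median depths of 20395.5 and 11650.0 unique molecular identifiers (UMIs) per cell. Only 4 barcodes were shared between the libraries. Hox genes were left out of the clustering, so no class was defined by them. SMC-like cells (smooth muscle markers such as Myh11 and Acta2) numbered 293 and 2585 in the wild-type and knock-in libraries, fibroblast-like cells 2709 and 2878, and endothelial-like cells 70 and 44. There were 316 and 276 macrophage or monocyte-like cells. One further cluster, led by the BMP antagonist gene Grem1, held 53 and 177 cells with markers of more than one class and was left unnamed. Clusters are named below by a leading gene. The cluster led by Mylk4 held most SMC-like cells of both libraries, while the largest fibroblast-like cluster was led by Pex5l in the wild-type library and by Csmd1 in the knock-in library. Over both libraries together Pex5l-led cells were the most numerous.

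Of the 39 members, 25 had at least 50 UMIs over all kept cells, 7 had between 1 and 49 and 7 had none. The well-measured set reached up to Hoxa10 in HoxA, ran from Hoxb2 to Hoxb9 in HoxB and from Hoxc4 to Hoxc10 in HoxC, with only Hoxd4 and Hoxd8 from HoxD. The far posterior end was close to empty: Hoxa11 had 4 UMIs and Hoxa13 and Hoxc13 had 2 each, and Hoxb13, Hoxc11 and Hoxc12 had none. In GENCODE vM21, which may not be the release behind the counts, 15 members shared exons or span with another gene on their own strand and 14 with an antisense gene. Hoxa3 spans Hoxa4 to Hoxa6 there, and Hoxc5 spans several downstream HoxC genes, so UMIs of these members may be divided between neighbours.

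Summed over all members, Hox genes gave 263 and 262 CPM (UMI counts scaled to a total of 1000000) in SMC-like cells of the wild-type and knock-in libraries. Fibroblast-like cells had 338 and 320 CPM, endothelial-like cells 428 and 494 CPM, and the Grem1-led cluster 383 and 324 CPM. Macrophage or monocyte-like cells, which arise from blood progenitors, had 8.4 and 10.5 CPM. That value covers free RNA and misassigned cells in that class only, and sets no bound on RNA exchanged between SMC-like and fibroblast-like cells. Total Hox level varied less than 2-fold among these vessel-wall groups, and they differed in which members made it up. Levels are compared for the same gene between cell groups only, since counts were not scaled for transcript length.

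**Figure D1:**
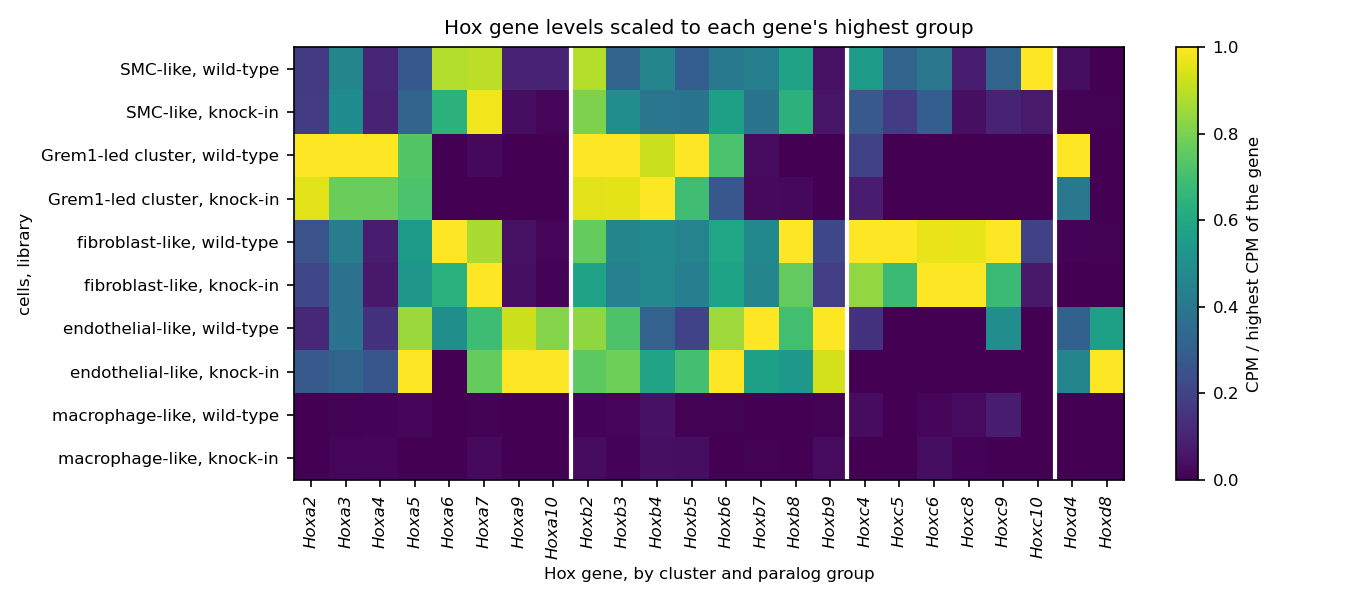
Level of Hox genes with at least 50 UMIs (horizontal axis, by cluster and paralog number) in each class and library (vertical axis), as CPM divided by that gene's highest CPM over the rows shown, from 0 to 1. The Grem1-led rows are bright from Hoxa2 to Hoxa5 and Hoxb2 to Hoxb5 and dark from group 7 on, HoxC is bright in fibroblast-like rows, and Hoxa9, Hoxa10, Hoxb9 and Hoxd8 are bright in endothelial-like rows.

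The share of Hox UMIs from the anterior groups put the classes in the same order in both libraries. In SMC-like cells the anterior groups made up 44.8% of Hox UMIs in the wild-type library and 44.0% in the knock-in library. Groups 7 and 8 made up 31.7% and 33.1% there, and the posterior groups 5.48% (95% Clopper-Pearson interval 4.37 to 6.77) and 1.85% (1.58 to 2.15). Fibroblast-like cells were less anterior, with 34.9% and 32.4% from groups 1 to 4 and 35.0% and 38.0% from groups 7 and 8. Their posterior share was 4.60% (4.31 to 4.91) and 3.72% (3.36 to 4.10). Endothelial-like cells were the most posterior class, with 25.2% (21.3 to 29.3) and 24.3% (18.8 to 30.5) of Hox UMIs from groups 9 to 13. The Grem1-led cluster was the most anterior, with 74.2% and 77.1% from groups 1 to 4 and no posterior UMI among 314 and 663 Hox UMIs, where 3 counts would be a share of 0.955% and 0.452%.

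**Figure D2:**
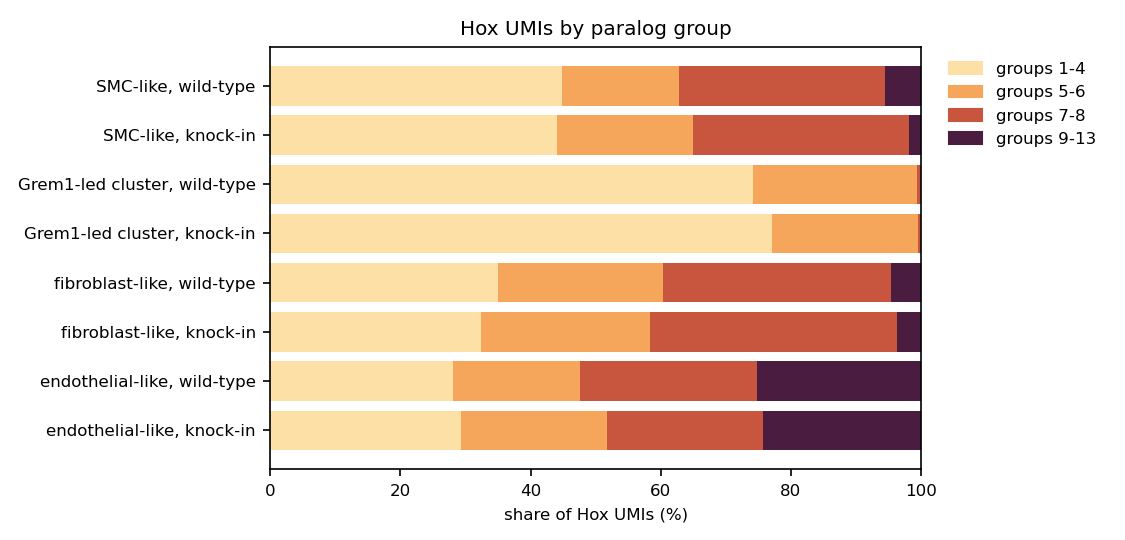
Share of Hox UMIs (horizontal axis, percent, bars stacked to 100) from paralog groups 1 to 4, 5 to 6, 7 to 8 and 9 to 13 in each class and library (vertical axis). The darkest block, groups 9 to 13, takes 25.2% and 24.3% in endothelial-like cells and is missing in the Grem1-led cluster.

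Endothelial-like cells and the Grem1-led cluster also stood at the 2 ends cell by cell at matched depth. Among cells with 8000 to 20000 UMIs, a posterior Hox UMI was found in 14.0% of 179 wild-type and 4.81% of 2183 knock-in SMC-like cells, in 17.0% of 877 and 10.4% of 1639 fibroblast-like cells, and in 54.5% of 44 and 48.0% of 25 endothelial-like cells. In that window the background class, macrophage or monocyte-like, had one in 0.418% of 239 and 1.35% of 222 cells, and the Grem1-led cluster in 0 of 41 and 0 of 126. After each cell was thinned to 8000 UMIs the shares were 9.22% and 3.57% in SMC-like cells, 9.56% and 7.05% in fibroblast-like cells, and 53.4% and 44.4% in endothelial-like cells.

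The promoters of 4 members are shown because their genes mark limits against SMC-like cells described below: Hoxd4 and Hoxb8 for the Grem1-led cluster, and Hoxd8 and Hoxa9 for the endothelial-like cells. Each is the 250 bases before the gene's start in RefSeq on GRCm38.p6, written 5′ to 3′ on the gene's strand. Capitals mark, on either strand, TGATNNAT (a joint site of Hox and TALE proteins), TTTATG (a Cdx site) and AGGTCA (a retinoic acid receptor half-site). Hoxd4 lies at chr2:74721728-74721977 on the plus strand, Hoxb8 at chr11:96281655-96281904 on the plus strand, Hoxd8 at chr2:74704365-74704614 on the plus strand and Hoxa9 at chr6:52227371-52227620 on the minus strand.
Hoxd4: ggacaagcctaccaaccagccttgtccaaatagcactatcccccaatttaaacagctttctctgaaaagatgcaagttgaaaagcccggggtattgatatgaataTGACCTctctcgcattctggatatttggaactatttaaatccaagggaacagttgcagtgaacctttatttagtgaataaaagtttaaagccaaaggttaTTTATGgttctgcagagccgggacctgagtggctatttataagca
Hoxb8: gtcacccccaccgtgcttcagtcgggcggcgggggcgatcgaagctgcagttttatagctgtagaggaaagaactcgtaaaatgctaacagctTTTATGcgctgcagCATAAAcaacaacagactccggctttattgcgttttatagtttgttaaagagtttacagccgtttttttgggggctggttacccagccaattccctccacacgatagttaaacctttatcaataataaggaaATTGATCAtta
Hoxd8: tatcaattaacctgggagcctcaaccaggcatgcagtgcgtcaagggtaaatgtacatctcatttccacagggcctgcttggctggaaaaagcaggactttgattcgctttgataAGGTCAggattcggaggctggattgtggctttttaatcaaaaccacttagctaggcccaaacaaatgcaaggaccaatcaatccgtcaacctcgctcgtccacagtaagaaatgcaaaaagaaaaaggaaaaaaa
Hoxa9: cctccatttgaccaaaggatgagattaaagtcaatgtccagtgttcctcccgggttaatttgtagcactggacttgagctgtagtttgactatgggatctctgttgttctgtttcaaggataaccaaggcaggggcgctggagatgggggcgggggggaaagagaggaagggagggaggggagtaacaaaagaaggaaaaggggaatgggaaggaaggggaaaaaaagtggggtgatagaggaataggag
The Hoxd4 window held 1 TTTATG and 1 AGGTCA, the Hoxb8 window 1 TGATNNAT and 2 TTTATG on opposite strands, the Hoxd8 window 1 AGGTCA and the Hoxa9 window none of them. RefSeq gave 24 promoter windows for 22 of the members. TGATNNAT was in 4 of these, TTTATG in 5 and AGGTCA in 6, beside 7.68%, 10.8% and 14.0% of all 32851 mouse promoter windows of that length. A match describes the letters only and says nothing of binding in these cells.

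The Grem1-led cluster had almost no Hox UMIs past paralog group 6. Its Hoxa4 stood at 50.1 CPM (41 UMIs) in the wild-type library and 38.6 CPM (79 UMIs) in the knock-in library, against 5.22 and 5.06 CPM in SMC-like cells. The log2 ratio to SMC-like cells was 3.26 (2.54 to 4.0) and 2.93 (2.53 to 3.32), the intervals being exact conditional binomial ones at 95%. Hoxa2 was higher by 2.55 and 2.44 on the log2 scale, Hoxa5 by 1.41 and 1.14, and Hoxb4 by 1.01 and 1.35. Hoxd4 had 12 UMIs in each library here, and 3 in each among the SMC-like cells, log2 ratios of 4.76 (2.87 to 7.23) and 6.05 (4.16 to 8.52). It was not particular to this cluster. Its level here was 14.7 and 5.86 CPM, and endothelial-like cells had it at 4.56 and 6.67 CPM (5 and 3 UMIs).

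HoxA levels in this cluster dropped away between groups 5 and 7. Hoxa6 had 0 UMIs in both libraries, against 9 and 40 (1.62 and 1.18 CPM) in SMC-like cells. The upper bounds of these zeros, 4.50 and 1.80 CPM, lay above the SMC-like levels, so they do not place the limit at group 5. Hoxd8 had 0 UMIs too, but SMC-like cells also had only 0 and 7. In HoxB the drop came past group 6. Hoxb6 was still at 20.8 and 7.82 CPM, but its neighbour Hoxb7 had 1 and 2 UMIs, Hoxb8 0 and 1, and Hoxb9 none. Hoxa7, which is among the members with most UMIs in SMC-like cells (291 and 1936 UMIs), had 1 UMI in the wild-type Grem1-led cells and 0 in the knock-in ones, at least 38.9-fold lower in the knock-in library when set against a floor of 3 counts. Hoxb8 was at least 3.29-fold lower in the wild-type library, with 0 UMIs against 67, and among knock-in cells its log2 ratio was -4.79 (-10.09 to -2.30) on 1 UMI. Groups 7 and 8 made up 0.637% and 0.452% of the cluster's Hox UMIs. HoxC was absent apart from 1 Hoxc4 UMI in each library.

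A member is counted as apart below when its CPM differed at least 2-fold after 0.5 was added to each sum of UMIs, among members with at least 10 UMIs over both groups. By that rule 8 of 20 measured members were higher in the Grem1-led cluster than in SMC-like cells in the wild-type library, beside 19.9% of all genes, and 9 were lower, beside 8.39%. In the knock-in library 6 of 24 were higher, beside 22.3%, and 12 were lower, beside 6.87%. Hoxa2, Hoxa4, Hoxa5, Hoxb4 and Hoxd4 were on the higher side in both libraries, and Hoxa7, Hoxb7, Hoxb8, Hoxc6 and Hoxc8 were among those on the lower side in both. Summed over 12 smooth muscle markers the cluster had 7121 and 10864 CPM, against 43633 and 41843 in SMC-like cells. Its 12 fibroblast markers summed to 29547 and 22306 CPM.

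Some genes picked from the positional lists also separated this cluster from SMC-like cells. How many members of each list did so is not given here. Of all genes, 19.9% were at least 2-fold higher in this cluster for the wild-type library and 22.3% for the knock-in one. Whether the lists exceed those shares was not tested. Only Tfap2b and Foxd1 are set against fibroblast-like cells here, so the rest may not separate it from that class. Tfap2b, a neural crest and ductus arteriosus transcription factor, had 78.1 and 77.7 CPM, and under 0.5 CPM in both SMC-like and fibroblast-like cells. Dlx5, a pharyngeal arch and limb homeobox gene, had 41.5 and 54.3 CPM against 0.72 and 1.00 in SMC-like cells, and its neighbour Dlx6 had 37.8 and 38.6 CPM. Foxf1, a splanchnic mesoderm factor, stood at 90.3 and 56.2 CPM against 4.14 and 6.09. Osr1 stood at 689 and 637 CPM against 201 and 222, and the retinoic acid receptor gene Rarb at 90.3 and 51.3 CPM against 13.9 and 12.3. Aldh1a2, which makes retinoic acid, was at 78.1 and 29.3 CPM against 0 and 0.177. The cofactor gene Meis1 was at 161 and 138 CPM, against 41.4 and 40.6 in SMC-like cells. Foxd1, at 32.2 and 41.0 CPM in fibroblast-like cells, had no UMI here.

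SMC-like and fibroblast-like cells were within 2-fold of each other in most HoxA and HoxB genes and differed mainly in HoxC. Hoxa7 stood at 52.4 and 57.0 CPM in SMC-like cells and 50.8 and 58.3 CPM in fibroblast-like cells, log2 ratios of 0.04 and -0.03. Hoxc8, a mid-trunk gene, stood at 2.16 and 1.18 CPM in SMC-like cells (12 and 40 UMIs) and at 28.0 and 29.1 CPM in fibroblast-like cells (1608 and 943 UMIs). Its log2 ratio was -3.70 (-4.65 to -2.89) and -4.63 (-5.12 to -4.17), the lowest of the 25 members measured in the wild-type library with UMIs in both classes. HoxC as a whole made up 7.19% and 3.59% of Hox UMIs in SMC-like cells and 18.0% and 18.1% in fibroblast-like cells.

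Hoxc5, Hoxc6 and Hoxc9 were lower as well, while Hoxc10 was not. Hoxc6 was at 6.48 and 4.86 CPM in SMC-like cells against 15.7 and 16.3, log2 ratios of -1.28 and -1.75, and Hoxc5 had ratios of -1.64 and -1.94 and Hoxc9 of -1.63 and -2.84. Hoxb9 was the one HoxB gene with a large gap, at 1.44 and 1.77 CPM against 6.77 and 5.62 CPM, log2 ratios of -2.23 and -1.67. Hoxa5 was lower by 0.98 and 0.70 on the log2 scale, under the 2-fold limit, with 16.6 and 19.6 CPM against 32.8 and 31.9.

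In the wild-type library 5 of 25 measured members were higher in SMC-like cells, beside 13% of all genes, and 6 were lower, beside 20.9%. Hoxa9, Hoxa10, Hoxc10 and Hoxd4 were among those higher. Hoxa10 had 17 UMIs (3.06 CPM) in SMC-like cells against 24 (0.418 CPM) in fibroblast-like cells, a log2 ratio of 2.87 (1.88 to 3.83), and Hoxc10 had 20 (3.6 CPM) against 41 (0.715 CPM), a ratio of 2.33 (1.48 to 3.14). In the knock-in library 2 of 24 were higher, Hoxd8 among them, beside 14.8%, and 6 were lower, beside 19.5%. Hoxa10 there stood at 0.441 and 0.278 CPM and Hoxc10 at 0.265 and 0.247 CPM, so the higher posterior genes of wild-type SMC-like cells were not seen again. Hoxb9, Hoxc5, Hoxc6, Hoxc8 and Hoxc9 were on the lower side in both libraries. The share of members on the lower side was near that of all genes in both libraries.

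**Figure D3:**
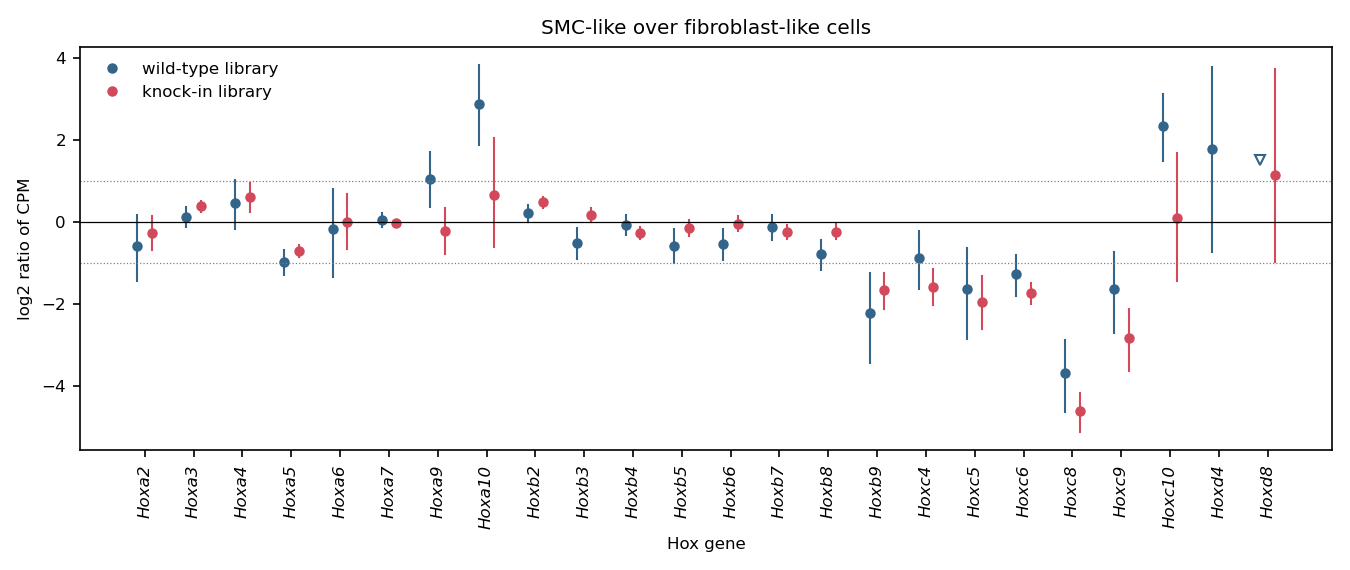
Log2 ratio of CPM in SMC-like over fibroblast-like cells (vertical axis) for Hox genes (horizontal axis) in the wild-type library (blue) and the knock-in library (red). Lines are 95% counting intervals, the dotted lines mark 2-fold, and the open triangle is the upper bound of Hoxd8, which had 0 UMIs in wild-type SMC-like cells. Hoxc8 is lowest in both libraries, and Hoxa10 and Hoxc10 lie high in the wild-type library alone.

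Among the fibroblast-like clusters, HoxC took a larger share in the Wnt2-led and Csmd1-led cells, and Hoxb9 was lowest in the Wnt2-led cells. HoxC made up 22.8% and 22.1% of Hox UMIs in the Wnt2-led cluster and 23.3% and 22.5% in the Csmd1-led cluster, but 13.6% and 13.7% in the Pex5l-led cluster. Hoxc4 was higher in Wnt2-led than in Pex5l-led cells by 1.18 and 1.27 on the log2 scale, and Hoxc8 by 0.76 (0.60 to 0.91) and 0.73 (0.50 to 0.96). Hoxb9 went the other way, with 55 and 24 UMIs in the Wnt2-led and 255 and 96 in the Pex5l-led cells, log2 ratios of -1.67 (-2.12 to -1.24) and -1.09 (-1.80 to -0.43). The Csmd1-led cells had the highest Hoxb9, at 12.3 and 7.79 CPM (78 and 62 UMIs), against 8.43 and 6.01 CPM in Pex5l-led and 2.65 and 2.83 CPM in Wnt2-led cells. In the wild-type library 4 of 24 measured members were higher in the Wnt2-led cluster, beside 7.42% of all genes, and 2 lower, beside 11.3%. With the knock-in 2 of 21 were higher, beside 6.34%, and 1 was lower, beside 15.4%. The Csmd1-led cluster had the highest posterior share of the 3, at 8.24% and 5.10%, against 4.30% and 3.25% in the Pex5l-led and 3.82% and 3.26% in the Wnt2-led cluster.

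Within the SMC-like cells the small Sncg-led cluster, 49 and 218 cells, had a larger share of HoxC and, over all its cells, of posterior genes than the Mylk4-led cluster. Its posterior share was 10.5% and 3.19%, against 4.30% and 1.73%. The wild-type value rests on 17 female cells (21.1%): in wild-type male cells the order was the reverse, 2.68% in Sncg-led against 5.55% in Mylk4-led cells. Its HoxC share 12.7% and 10.1%, against 5.91% and 2.99%. Hoxc9 had 5 and 7 UMIs in the Sncg-led cells and 5 and 11 in the far more numerous Mylk4-led cells, log2 ratios of 2.37 (0.25 to 4.49) and 2.86 (1.26 to 4.36). Hoxc8 had ratios of 1.89 (-0.11 to 3.76) and 2.46 (1.38 to 3.46). In the wild-type library 6 of 19 measured members were higher in Sncg-led cells, beside 7.26% of all genes, and none was lower, beside 7.95%. In the knock-in library 5 of 22 were higher, beside 10.4%, and 1, Hoxb5, was lower, beside 9.44%. Hoxa10, Hoxc8 and Hoxc9 were higher in both.

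Endothelial-like cells carried the posterior genes of HoxA, HoxB and HoxD and almost no HoxC. Hoxa9 stood at 41.0 and 44.5 CPM (45 and 20 UMIs) against 4.32 and 1.59 CPM in SMC-like cells, log2 ratios of 3.25 (2.5 to 4.03) and 4.81 (3.99 to 5.57). Hoxa10 stood at 25.5 and 31.1 CPM, ratios of 3.06 (2.14 to 4.02) and 6.14 (4.98 to 7.29), and Hoxb9 at 31.0 and 28.9 CPM, ratios of 4.43 (3.29 to 5.75) and 4.03 (3.04 to 4.91). Hoxd8 had 25 and 18 UMIs, 22.8 and 40.0 CPM, while SMC-like cells had 0 and 7 UMIs, at least 42.2-fold lower in wild-type cells and, among knock-in cells, a log2 ratio of 7.60 (6.27 to 9.10). Hoxd9, with 18 UMIs in all kept cells of both libraries, had 7 in the endothelial-like cells of each. Posterior members of 3 of the clusters were thus at their highest in the same small class in both libraries.

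HoxC was nearly missing from endothelial-like cells, at 0.853% and 0% of their Hox UMIs, where 0 of 222 Hox UMIs was counted in the knock-in library. Hoxc6 and Hoxc8 had no UMI in either library, though fibroblast-like cells had 902 and 1608 in the wild-type library. HoxD made up 8.74% and 13.1%, against 0.342% and 0.168% in SMC-like cells. In the wild-type library 8 of 22 measured members were higher in endothelial-like than in SMC-like cells, beside 22.6% of all genes, and 4 were lower, beside 12.8%. In the knock-in library 8 of 24 were higher, beside 22.0%, and 1 was lower, beside 13.8%. Against fibroblast-like cells 8 of 26 were higher and 5 lower in the wild-type library, beside 23.3% and 12.3%, and 6 of 23 were higher and 5 lower in the knock-in library, beside 21.9% and 14.2%. The wild-type endothelial-like cells included some with mesothelial markers, whose 7 genes summed to 1370 CPM there and to 0 in the knock-in library. Without cells that had a UMI of Upk3b, Msln, Wt1 or Krt19 or that lacked Pecam1 and Cdh5, the posterior share was 26.5% and 24.3%.

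Between the libraries, posterior genes of HoxA and HoxC, summed over all SMC-like cells, were lower with the knock-in. Hoxa9 stood at 4.32 CPM (24 UMIs) in the wild-type library and 1.59 CPM (54 UMIs) with the knock-in, so that knock-in over wild-type was -1.44 on the log2 scale (-2.16 to -0.69). Hoxa10 went from 3.06 CPM (17 UMIs) to 0.441 CPM (15 UMIs), a ratio of -2.79 (-3.90 to -1.70). Hoxc10 went from 3.6 CPM (20 UMIs) to 0.265 CPM (9 UMIs), a ratio of -3.77 (-5.08 to -2.57), and Hoxc9 from 1.80 to 0.530 CPM, a ratio of -1.77 (-2.96 to -0.49). Hoxb9 did not share this, at 1.44 and 1.77 CPM with a ratio of 0.29 (-0.78 to 1.57). These 4 were the only ones of the 23 measured members at least 2-fold lower, beside 5.24% of all genes, and 0 were at least 2-fold higher, beside 6.11%. The Sncg-led cluster held 12 of the 24 wild-type Hoxa9 UMIs but 4 of the 54 knock-in ones. For Hoxc9 it held 5 of 10 and 7 of 18 UMIs. The counts were 5 of 17 and 3 of 15 for Hoxa10, and 7 of 20 and 5 of 9 for Hoxc10. The Mylk4-led cluster was 244 of 293 wild-type cells but 2367 of 2585 knock-in cells. Cluster makeup thus enters these ratios, and a drop within each cluster was not tested gene by gene.

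The anterior and central genes of SMC-like cells were close between the libraries. The median log2 ratio was -0.11 over the anterior and -0.02 over the central members measured, against -0.05 over all genes, and -1.80 over the posterior members. Hoxb3 had a ratio of 0.61 (0.23 to 1.02), Hoxb6 of 0.49 (0.11 to 0.88) and Hoxc4 of -0.95 (-1.72 to -0.13), none reaching 2-fold. The posterior share of Hox UMIs was lower in the knock-in library by 1.57 on the log2 scale. Fibroblast genes moved with it: in SMC-like cells 6 of 12 fibroblast genes were at least 2-fold lower in the knock-in library and none higher, with a median of -0.98, and the 12 fibroblast markers summed to 9887 and 6822 CPM. Among SMC-like cells with no UMI of Pdgfra, Lum, Pi16 or Clec3b, a subset chosen after the data were seen, the posterior share was 7.54% in 157 wild-type cells and 1.70% in 1923 knock-in cells; their log2 ratio was -2.15, and the part of fibroblast RNA in the gap was not tested further. The wild-type value rests on 293 cells, and the segments of aorta that entered each library were not given, so genotype and sampling of the vessel cannot be told apart.

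Fibroblast-like cells showed a smaller gap. Their posterior share was lower in the knock-in library by 0.307 on the log2 scale. Of 24 measured members 2 were at least 2-fold lower, beside 4.77% of all genes, and 0 higher, beside 6.33%. Hoxc10 had 41 and 8 UMIs, a ratio of -1.53 (-2.84 to -0.42), and Hoxd8 15 and 3 UMIs, a ratio of -1.50 (-3.93 to 0.32). Hoxc9 had a ratio of -0.56 (-0.87 to -0.25) and Hoxb8 of -0.40 (-0.55 to -0.25), while Hoxa7 had one of 0.20 (0.11 to 0.28). The posterior median was -0.54, against -0.06 over all genes. In these cells 4 of 15 contractile genes were at least 2-fold higher in the knock-in library, with a median of 0.42. Endothelial-like cells had 2 of 16 measured members higher, Hoxb5 and Hoxd9, beside 5.48%, and 0 lower, beside 11.3%. The Grem1-led cluster had 0 of 11 higher, beside 6.02%, and 2 lower, Hoxb6 and Hoxd4, beside 6.55%.

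**Figure D4:**
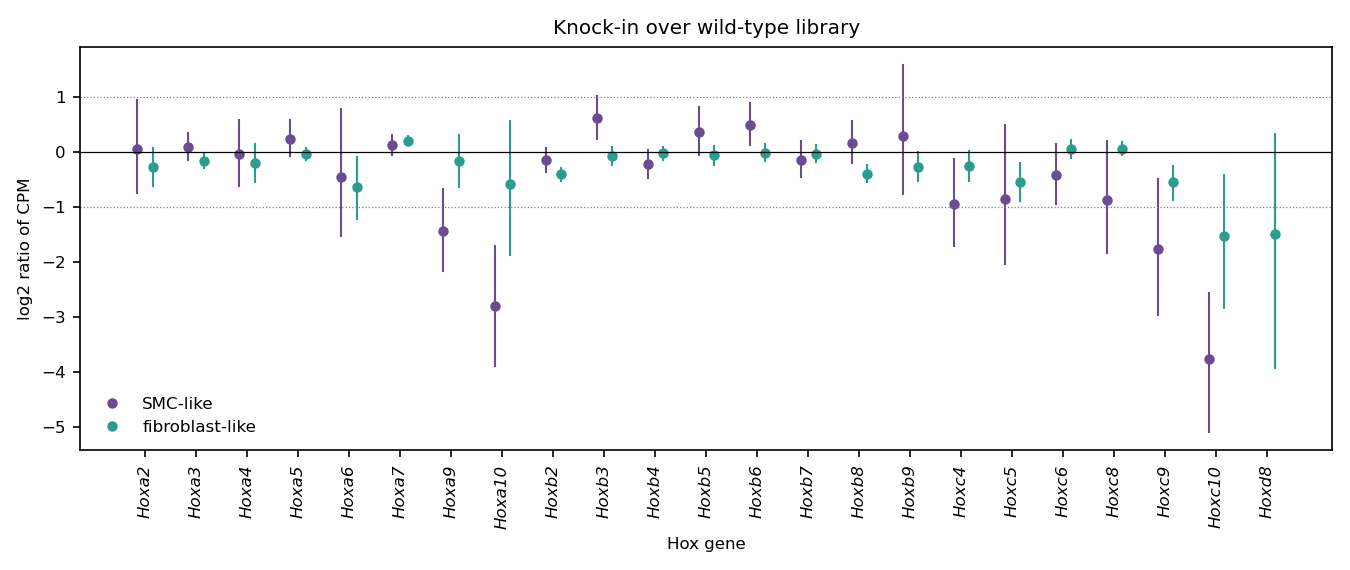
Log2 ratio of CPM in the knock-in over the wild-type library (vertical axis) for Hox genes (horizontal axis) in SMC-like (purple) and fibroblast-like (green) cells, with 95% counting intervals as lines and 2-fold as dotted lines. Hoxa9, Hoxa10, Hoxc9 and Hoxc10 lie under the lower dotted line in SMC-like cells, and Hoxc10 and Hoxd8 in fibroblast-like cells.

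Few cofactor, Polycomb or trithorax genes were apart between the libraries. Over all genes the shares were 6.11% higher and 5.24% lower in SMC-like cells, and 6.33% and 4.77% in fibroblast-like cells. Of the 11 TALE cofactor genes 1 was at least 2-fold higher and none lower in SMC-like cells, and none was apart in fibroblast-like cells. Of the Polycomb and trithorax genes 1 of 22 was higher in SMC-like cells and 0 of 23 were apart in fibroblast-like cells. Of 5 non-coding genes of the clusters none was apart in either class, and the myeloid-associated HoxA transcript Hotairm1 stood at 56.6 and 88.4 CPM in SMC-like cells and 26.0 and 33.2 CPM in fibroblast-like cells. In the retinoic acid list 0 of 12 were higher and 2 lower in SMC-like cells, and 1 and 2 of 16 in fibroblast-like cells. The outflow, arch and neural crest list had 1 higher and 2 lower of 17, and 1 and 2 of 20. The list of trunk and limb-field positional factors had 1 higher and 4 lower of 13 in SMC-like cells, and 1 higher and 5 lower of 17 in fibroblast-like cells. Aldh1a1, which also makes retinoic acid, separated the classes in both libraries, at 119 and 95.2 CPM in fibroblast-like cells and 1.44 and 0.706 CPM in SMC-like cells, and Tbx18, a T-box gene of mural cells, at 54.8 and 73.1 CPM in SMC-like cells and 12.6 and 14.1 CPM in fibroblast-like cells.

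Posterior genes of different clusters were found together in the same cells. Among SMC-like cells of 8000 to 20000 UMIs in the wild-type library, a posterior HoxC UMI was present in 8 of the 17 cells with a posterior HoxA UMI (47.1%) and in 3.70% of the others. Knock-in cells had it in 4 of 53 (7.55%) and 0.235%. Fibroblast-like cells had 13 of 34 (38.2%) against 8.54%, and 5 of 38 (13.2%) against 3.69%. Hoxb9 followed posterior HoxA in fibroblast-like cells, in 29.4% against 7.12% and 10.5% against 5.37%, and in wild-type endothelial-like cells, in 52.6% against 8.0%. In SMC-like cells the values were 0% against 1.85% in the wild-type library and 3.77% against 2.07% in the knock-in library. These shares are descriptions of cells within 1 library, and cells with more UMIs detect more of every gene.

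The neighbouring groups were also shared. In fibroblast-like cells a UMI of groups 7 or 8 was present in 81.9% and 82.5% of cells with a posterior UMI and in 60.4% and 61.7% of the others. An anterior UMI was about as common in both, at 81.2% against 80.4% in the wild-type library and 76.0% against 72.1% in the knock-in library. In SMC-like cells the shares for groups 7 or 8 were 72.0% against 59.1% and 72.4% against 55.2%, and for the anterior groups 68.0% against 76.6% and 71.4% against 72.2%. Hoxb7 or Hoxb8 accompanied Hoxa7 in 38.1% against 23.2% and 34.1% against 23.5% of SMC-like cells, and in 45.5% against 30.1% and 39.8% against 27.9% of fibroblast-like cells. In each of these pairs the share was higher in the cells with a Hoxa7 UMI, though the genes lie on separate chromosomes.

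Splitting fibroblast-like cells of that depth by a posterior Hox UMI gave 149 and 728 cells with and without one in the wild-type library and 171 and 1468 in the knock-in library. Of 12162 genes outside the Hox set, 18 were at least 2-fold higher in the cells with one in both libraries, a share of 0.148%, and 67 lower, 0.551%. Genes named here were ranked by the interval bound nearest 0, so some, such as Pax1 and Gdf10, were outside these counts. Pax1, a paired-box gene of the sclerotome, was higher by 0.83 (0.56 to 1.09) and 0.77 (0.51 to 1.01) on the log2 scale, and Hs3st5, a heparan sulfate sulfotransferase, by 1.26 and 1.53. Gdf10, a TGF-beta family ligand, was higher by 0.70 and 0.58. The genes lower in cells with a posterior UMI included Ptn, a heparin-binding growth factor (2 UMIs against 85, and 0 against 97), Rspo3, a Wnt amplifier (0 against 42, and 3 against 144), and Tcf21, an epicardial and fibroblast transcription factor, with ratios of -1.53 (-2.11 to -1.01) and -1.72 (-2.86 to -0.77). The orphan nuclear receptor gene Esrrg had ratios of -1.92 and -1.40.

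A few heart and pharyngeal arch factors were low in the posterior fibroblast-like cells. Of 15 measured genes of the outflow, arch and neural crest list, Hand2, Isl1, Dlx5 and Dlx6 were at least 2-fold lower in both libraries (26.7%, beside 0.551% of all genes), none was higher, and the other 11 were not 2-fold apart in both. Hand2, a heart and limb field factor, had 8 UMIs in cells with a posterior Hox UMI and 103 in the others in the wild-type library, and 3 and 143 in the knock-in library, log2 ratios of -1.36 (-2.61 to -0.33) and -2.53 (-4.83 to -0.96). Dlx5 had 3 and 79 UMIs, then 3 and 110, ratios of -2.40 (-4.71 to -0.80) and -2.15 (-4.45 to -0.57). Isl1 and Dlx6 had no UMI in the posterior cells of either library, against 32 and 35 UMIs and 28 and 38 UMIs in the others. The antisense gene Hoxaas2 of the anterior HoxA cluster had 2 against 39 and 1 against 78 UMIs. No Polycomb or trithorax gene among 22 measured, no cofactor among 10 and no contractile gene among 14 was 2-fold apart in both libraries.

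When the line was drawn lower, at any UMI of groups 7 to 13, a choice made after the data were seen, the same factors separated and more followed. Hs3st5 was higher by 2.51 and 2.87 on the log2 scale, Pax1 by 1.54 and 1.10, and Klf5 by 1.84 and 1.17. Ptn had ratios of -4.18 and -3.70, Epyc of -3.40 and -2.67 and Esrrg of -2.13 and -2.04. Hand2, Isl1, Msx1, Dlx5 and Dlx6 were at least 2-fold lower in both, 5 of 15 (33.3%) beside 0.715% of all genes. The cofactor genes Meis1 and Meis2 had ratios of -0.41 and -0.45, and of -0.73 and -0.31, and Foxd1 had ratios of 1.29 (0.92 to 1.67) and 0.45 (0.23 to 0.67). Nr2f2, a venous and mesenchymal nuclear receptor, had ratios of 0.70 and 0.25.

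In SMC-like cells the same split gave 25 and 154 wild-type and 105 and 2078 knock-in cells. Of 8917 genes 12 were at least 2-fold higher in both libraries, a share of 0.135%, and 11 lower, 0.123%. Genes named from this split were ranked by the interval bound nearest 0, so some, such as Tnc and Wif1, were outside these counts. Rgs5, a mural-cell signalling regulator that is also on the pericyte marker list, was higher by 2.48 (2.30 to 2.66) and 1.25 (1.13 to 1.37) on the log2 scale. Fgf14 was higher by 1.72 (0.95 to 2.45) and 2.07 (1.57 to 2.53), and Tnc, a matrix glycoprotein, by 0.99 and 0.68. Apoe, the lipid carrier, had ratios of -2.27 (-2.76 to -1.81) and -0.66 (-0.92 to -0.40), Wif1, a secreted Wnt inhibitor, of -1.31 and -0.59, and Sorbs2 of -1.13 and -0.81. None of the 15 contractile genes was 2-fold apart in both. Acta2 had ratios of -0.25 and -0.04 and Myh11 of -0.04 and -0.17. Split at groups 7 to 13, no gene was 2-fold higher in both libraries and 4 were lower, 0.0449%. Apoe had there ratios of -2.55 and -1.03 and Tnnt2 of -2.42 and -1.90, and Tbx18 was higher by 0.94 (0.36 to 1.55) and 0.44 (0.31 to 0.58). Fgf14 is also among the leading genes of the Sncg-led cluster. Over all its cells that cluster had the higher posterior share of the SMC-like clusters, but in wild-type male cells it had 2.68% against 5.55% in the Mylk4-led cluster.

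Because both libraries combined males and females, cells were divided by Xist and Y-linked UMIs. Wild-type cells were 32.6% female and 56.7% male, and knock-in cells 46.0% female and 33.5% male, the rest having neither or both. In fibroblast-like cells the posterior share of Hox UMIs was 5.43% (4.90 to 5.99) for female cells of the wild-type library and 3.90% (3.55 to 4.28) for its male cells, and 4.43% (3.84 to 5.09) and 2.86% (2.38 to 3.41) in the knock-in library. Female cells also had the higher value in SMC-like cells, at 5.80% against 5.10% and 2.32% against 1.09%, and in endothelial-like cells, at 28.8% against 22.4% and 29.9% against 19.2%. At matched depth this was not so in every class. Among cells with 8000 to 20000 UMIs, a posterior UMI was found in 13.2% of female and 14.8% of male SMC-like cells of the wild-type library, and in 17.4% and 16.5% of its fibroblast-like cells. The knock-in values were 6.21% and 2.18%, and 12.5% and 8.09%, and endothelial-like cells had 61.9% and 45.5% in the wild-type and 58.3% and 41.7% in the knock-in library. The knock-in value of SMC-like and of fibroblast-like cells was below the wild-type value within each sex. In female SMC-like cells, however, 23 of the 35 wild-type posterior UMIs came from 17 Sncg-led cells. In the Mylk4-led cluster alone the female shares of Hox UMIs were close, at 2.43% (1.26 to 4.20) in the wild-type and 2.15% (1.76 to 2.60) in the knock-in library. The male shares there were 5.55% and 0.967%. Member by member, Hoxc9 was higher in female fibroblast-like cells by 0.97 (0.62 to 1.32) and 1.03 (0.38 to 1.71) on the log2 scale, and Hoxb9 by 0.38 (0.07 to 0.69) and 0.70 (0.23 to 1.18). In SMC-like cells 2 of 18 measured members were at least 2-fold higher in female cells of the wild-type library (Hoxa2 and Hoxa9, beside 2.46% of all genes) and none lower (2.88%). Of 22 in the knock-in library 3 were higher (Hoxa10, Hoxb9 and Hoxc9, beside 2.03%) and none lower (2.1%). Fibroblast-like cells had 0 of 24 apart in the wild-type library (2.65% higher and 2.96% lower over all genes), and of 21 in the knock-in library 1, Hoxc9, was higher (2.93%) and 1 lower (1.77%). Endothelial-like cells had 0 of 13 higher (8.08%) and Hoxa3 lower (4.87%) in the wild-type library, and Hoxa9 and Hoxb9 of 10 higher (6.55%) and none lower (7.29%) in the knock-in library. How many animals of each sex were combined was not given, so sex and animal cannot be told apart.

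**Figure D5:**
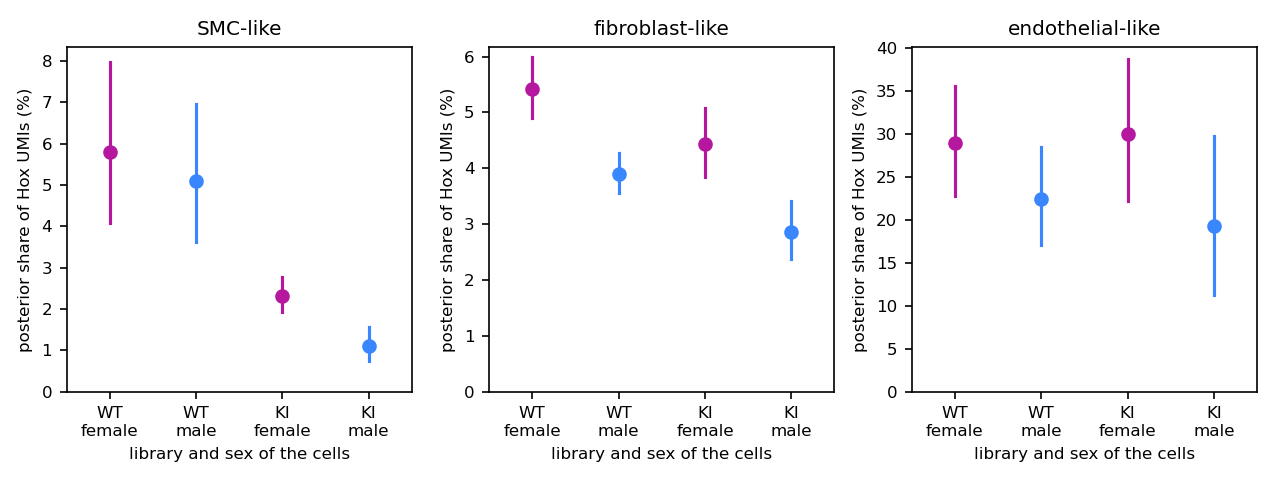
Share of Hox UMIs from groups 9 to 13 (vertical axis, percent) in female (magenta) and male (blue) cells of the wild-type (WT) and knock-in (KI) libraries, for SMC-like, fibroblast-like and endothelial-like cells. Points are shares over all UMIs of the cells and lines 95% Clopper-Pearson intervals. The female point lies above the male point in each of the 6 pairs, and the intervals are separate in both fibroblast-like pairs and in the knock-in SMC-like pair.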

How the data were processed

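Both 10x libraries were analysed from the raw UMI counts the authors deposited for all barcodes. The counts came from Cell Ranger 7.1.0, per the submitters' processing notes. Which genome build and gene models were used is not given in the sources used here. Cells with at least 1000 UMIs and 500 genes and at most 10% mitochondrial UMIs were kept, and the top 0.8% per 1000 cells by scrublet score (109 wild-type and 330 knock-in cells) were removed as doublets. Total UMIs were 79626104 and 85831737. Clustering (scanpy 1.11.5, Python 3.11.15) used 2000 variable genes without Hox genes, 30 components, 15 neighbours and Leiden resolution 0.5. A marker passed in a cluster with a UMI in at least 25% of its cells and 20% of its highest level over clusters. Each cluster took the name of the list with the largest share of markers passing. It stayed unnamed when a second list scored over 0.65 of the first or too few markers passed. The same held for a shallow cluster with no marker of the list among its leading genes, or when more of those genes belonged to another list. This rule was chosen after the clusters were seen. UMIs were summed by class and library. With 1 library per genotype there was no test. Ratios carry exact conditional binomial intervals and shares Clopper-Pearson intervals, both at 95%. A gene was called apart at 2-fold with 0.5 added, at least 10 UMIs and the plain CPM on the same side. Cell splits used genes with at least 20 UMIs in each library. Members with at least 50 UMIs were named, and genes named from cell splits were those among the 8 in each direction whose interval bound lay farthest from 0, plus genes of the lists. A female cell had Xist and no Y-linked UMI, a male cell the reverse. The calculation was checked on simulated counts. Members, lists and named genes were chosen with earlier results of these data known. Alternatives were another UMI minimum, mitochondrial limit, resolution, doublet setting, prior, count minimum, depth window, largest cluster, sex and separate clustering, and are given in the closing section. Some genes are not reported here by name or drawn, and stay in the counts and sums.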

Additional observations from a re-analysis of the deposited data

Results flagged for a closer look

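Hox UMIs also lay outside cells. Barcodes with 10 to 100 UMIs, which held no cell kept here, carried 367 Hox UMIs for the wild-type library and 824 for the knock-in one. These came to 251 and 271 CPM, close to the level of SMC-like cells (263 and 262 CPM), while macrophage or monocyte-like cells had 8.4 and 10.5 CPM. The part of this RNA in the results was not tested. Neither that macrophage value nor the absence of posterior UMIs from the Grem1-led cluster bounds it in the other classes.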

How the results depend on the processing

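No paired analysis was possible because each genotype had 1 library, and for the same reason no replicate could be left out. The lower posterior share of knock-in SMC-like cells kept its direction under every alternative run, with log2 ratios of -2.22 in male cells, -1.97 at 8000 to 20000 UMIs and -2.15 without fibroblast UMIs as the values farthest from the main one. In the depth window fibroblast-like cells had -0.65. The gap of SMC-like cells was smaller in the largest cluster and in female cells, where the shares were 5.80% and 2.32%. Female cells of the Mylk4-led cluster had 2.43% (1.26 to 4.20) and 2.15% (1.76 to 2.60). The posterior share of wild-type SMC-like cells was 7.41% in the window, 4.30% in the largest cluster and 7.54% without fibroblast UMIs, and that of knock-in SMC-like cells 2.32% in female and 1.09% in male cells. For fibroblast-like cells the largest cluster is the Pex5l-led one, the most numerous over both libraries. For wild-type fibroblast-like cells it was 4.91% at resolution 1.0, 5.43% in female and 3.90% in male cells, 5.65% in the window and 4.30% in the largest cluster, and for knock-in ones 4.43%, 2.86% and 3.25% in female cells, male cells and that cluster. The Csmd1-led cluster, the largest in the knock-in library, had 8.24% and 5.10%, so that over all cells the share was lower with the knock-in within each fibroblast-like cluster. Split by sex, male Wnt2-led cells did not show this, at 2.82% (2.33 to 3.39) in the wild-type and 2.99% (2.16 to 4.04) in the knock-in library. Female Wnt2-led cells and both sexes of the other fibroblast-like clusters were lower with the knock-in. Between the libraries 1 member was higher in SMC-like cells without doublet removal or at a minimum of 5 UMIs, and 7 were lower without fibroblast UMIs. In fibroblast-like cells 1 was lower in male cells, the largest cluster or at a minimum of 20. The posterior median of SMC-like cells was -2.59 in male cells, -3.45 in the window and -3.44 without fibroblast UMIs. Members higher in SMC-like than in fibroblast-like cells numbered 3 in the wild-type library at resolution 1.0, in female cells, in the window and in the largest cluster. In the knock-in library they were 0 at up to 5% mitochondrial UMIs and 1 at resolution 1.0, in male cells, the window, the largest cluster, without fibroblast UMIs and at a minimum of 20. Thinned to 8000 UMIs, several co-detection shares moved, and the cause was not tested. Hoxb7 or Hoxb8 with Hoxa7 came to 25.0% and 24.1% in wild-type and knock-in SMC-like cells and 32.2% and 24.9% in fibroblast-like cells. Groups 7 or 8 with a posterior UMI came to 62.8% in knock-in SMC-like and 69.5% and 70.1% in fibroblast-like cells, and Hoxb9 with posterior HoxA to 13.2% in wild-type fibroblast-like cells. Thinned shares of the other cells are not given here, so no gap can be read from these values. At groups 7 to 13 Kirrel3 reversed to 0.019 in wild-type fibroblast-like cells; the cause was not tested. Clustered separately, the knock-in library gave no endothelial-like cluster and so no value. Its fibroblast-like class then held 1810 cells, against 2878 in the main setting.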

Other observations

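Cells of the Grem1-led cluster were of both sexes in the knock-in library only. Of its 53 wild-type cells 51 were male and 0 female, while of its 177 knock-in cells 70 were female and 80 male. Posterior Hox UMIs were 0 in the 303 Hox UMIs of the wild-type male cells and 0 in the 243 and 343 of the knock-in female and male cells. Within the SMC-like clusters the sexes differed in both directions. In the wild-type Sncg-led cluster 23 of 109 female Hox UMIs were posterior (21.1%) and 3 of 112 male ones (2.68%). Male wild-type cells thus had the reverse order of these clusters, since in the Mylk4-led cluster the shares were 2.43% for female cells and 5.55% for male ones, and with the knock-in 2.15% and 0.967%. Among fibroblast-like clusters the Csmd1-led cells of the wild-type library also had the higher value in males, at 8.15% against 7.90%.

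Cluster 7, led by the histone gene Hist1h2ap and left unnamed because its cycling and fibroblast markers scored alike, had 323 CPM of Hox UMIs in 133 wild-type cells and 109 CPM in 70 knock-in cells.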
